A study of Homo sapiens with 5 samples.

Results

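The KDEL receptors and the COPI coat form the machinery that carries escaped endoplasmic reticulum (ER) proteins back from the Golgi. The 10 genes described here are the receptors KDELR1, KDELR2 and KDELR3 and the coat subunits COPA, COPB1, COPB2, COPG1, COPE, COPZ1 and ARCN1. They were selected on 1 measured value, the low KDELR1 count after FAM53C knock-down in these libraries, so that value is given as a description with no test. All 10 are among the 64252 genes of the count table, and all 10 had enough reads to be among the 15341 genes tested.

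RNA was sequenced from RPE-1 cells, an immortalized human epithelial line derived from the retinal pigment epithelium. The study asked what changes when FAM53C, a gene it relates to cell cycle control, is reduced. Cells of the siCtrl group (3 libraries) received the non-targeting siRNA ON-TARGET Control #1, and cells of the siFAM53C group (2 libraries, labelled FAM53C KD) received an ON-TARGETplus pool of siRNAs against FAM53C. Both groups were otherwise unmodified cells of the same line, transfected with Lipofectamine RNAiMAX at 5 µM siRNA, as the labels give it, and collected after 48 hr, and 1 siRNA pool stands for the knock-down. The study's methods speak of duplicate samples, where the labels give 3 siCtrl libraries, and do not say whether libraries of a group came from separate cultures, so p-values measure only the spread between these libraries.

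The libraries held 19260124 to 25615415 counts. FAM53C itself stood at 60.9, 59.7 and 57.6 CPM (counts scaled to a common library size) in siCtrl and at 14.2 and 22.3 in siFAM53C (fitted log2 fold change -1.71, SE 0.19, edgeR adjusted p = 0.00363). FAM53C shares 704 exon bases with genes on the opposite strand. VIM (3226 to 4146 CPM), KRT8 (236 to 328 CPM) and KRT18 (148 to 182 CPM) were high in all 5 libraries. RPE65, a defining gene of the pigment epithelium in the eye, had 0 counts in each. Of the other genes linked to that epithelium, MITF had 34.0 to 48.8 CPM, BEST1 had 4 to 15 counts and RLBP1 0 or 1. The cadherin gene CDH2 had 214 to 391 CPM and CDH1 at most 3 counts. The markers of leukocytes (PTPRC) and endothelium (PECAM1) had at most 20 counts. The first principal component (39.8% of the variance) placed siCtrl replicate 3 beside siFAM53C replicate 2 and siCtrl replicates 1 and 2 on the other side (scores of 33.7 and 44.9 against -31.5 and -47.4). The score of siFAM53C replicate 1, 0.264, lay between them. Values within the sides of that split, and the split as a term in the fit, place siFAM53C replicate 1 with siCtrl replicates 1 and 2, an assignment its score does not make. In bulk RNA, fewer cells of a type and less RNA per cell cannot be told apart.

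As background, many soluble ER proteins end in a KDEL-type tetrapeptide. A KDEL receptor binds it in the acidic Golgi and releases it in the neutral ER, and the loaded receptor travels back in vesicles coated by COPI. The small GTPase ARF1 recruits the coat, which is 1 complex of 7 subunits often called coatomer: the subunits of COPB1, COPG1, ARCN1 and COPZ1 form an adaptor-like layer next to the membrane, and those of COPA, COPB2 and COPE form the outer layer.

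A sequence shared by the members that stood lowest is shown first. Earlier results on these same libraries had singled out the heptamer GACAAGA in 3′ UTRs of genes with lower counts, so its presence in a low member is no independent evidence. Among the 10 members and the paralogues COPG2 and COPZ2, the 3′ UTR of the canonical transcript held it in KDELR1, ARCN1 and COPG2 and in none of the other 9 genes. The 27 bases around each site follow, 5′ to 3′ on the transcript's strand of hg38, with the heptamer in capitals.
KDELR1: ttgccttttaGACAAGAaaaaaaaatc
ARCN1: aagggcttggGACAAGAagtctgtcat
COPG2: atgcttactgGACAAGAggaaactgat
The KDELR1 window is chr19:48383066-48383092 on the minus strand, and its heptamer begins at base 211 of a 718-base 3′ UTR. The ARCN1 window is chr11:118602664-118602690 on the plus strand, at base 1960 of 2319. The COPG2 window is chr7:130506649-130506675 on the minus strand, at base 11 of 438. In KDELR1 and ARCN1 the heptamer is followed by A, and in COPG2 by G.

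KDELR1, a widely expressed receptor, stood far lower in siFAM53C than in siCtrl. The gene (ENSG00000105438) lies on the minus strand of chr19:48382575-48391551. It had 205, 222 and 195 CPM in siCtrl and 48.1 and 45.5 CPM in siFAM53C, from 3727 to 4834 counts per siCtrl library and 1273 and 1073 counts in siFAM53C. The siFAM53C libraries both lay far below every siCtrl library, and the mean fell from 208 ± 13.5 CPM (SD, n = 3) to 46.8 ± 1.82 CPM (SD, n = 2). The fitted log2 fold change was -2.15 (SE 0.11), or 22.6% of the control level, the 66th lowest of all genes tested. Within the sides of the library split it was -2.15 and -2.10.

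KDELR2, the second widely expressed receptor, stood at 272, 284 and 337 CPM in siCtrl and at 193 and 240 CPM in siFAM53C (ENSG00000136240, chr7:6445953-6484190, minus strand). Both siFAM53C libraries were below all siCtrl libraries. The means were 298 ± 34.3 CPM (SD, n = 3) and 216 ± 33.4 CPM (SD, n = 2), and the log2 fold change of -0.46 (SE 0.15, 95% interval -0.80 to -0.12) did not pass the test (edgeR adjusted p = 0.158). It was -0.53 and -0.49 within the sides of the split, and with the split as a term the adjusted p was 2.40e-04, in a fit that called 10.7% of all genes lower.

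KDELR3, the receptor best known as a target of the unfolded protein response, was the least abundant of the receptors. It had 11.6, 18.0 and 21.8 CPM in siCtrl and 17.1 and 20.2 CPM in siFAM53C (ENSG00000100196, chr22:38468078-38483447, plus strand). The siFAM53C values lay inside the siCtrl range, with a log2 fold change of 0.12 (SE 0.26, 95% interval -0.48 to 0.73, edgeR adjusted p = 0.868). Its interval is the widest of the members, and within the sides of the split the value was 0.24 and -0.11.

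Because KDELR1 was much lower relative to control than KDELR2 and KDELR3 were, the make-up of receptor mRNA differed between the groups. Per kilobase of exon, KDELR1 made up 54.8%, 54.8% and 47.3% of receptor reads in siCtrl and 27.0% and 22.1% in siFAM53C. KDELR2 made up 41.5%, 40.0% and 46.5% in siCtrl and 61.7% and 66.4% in siFAM53C. KDELR3 held 3.65%, 5.21% and 6.19% in siCtrl and 11.3% and 11.5% in siFAM53C. KDELR2 thus took the largest share in both siFAM53C libraries, where KDELR1 had it in all siCtrl libraries. The summed level of the receptors was 698 ± 46.1 TPM (reads per length, scaled to a common total; SD, n = 3) in siCtrl and 350 ± 27.4 TPM (SD, n = 2) in siFAM53C, which is 50.2% of control. These shares and sums contain the value that selected the genes, and no test was made of them.

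**Figure D1:**
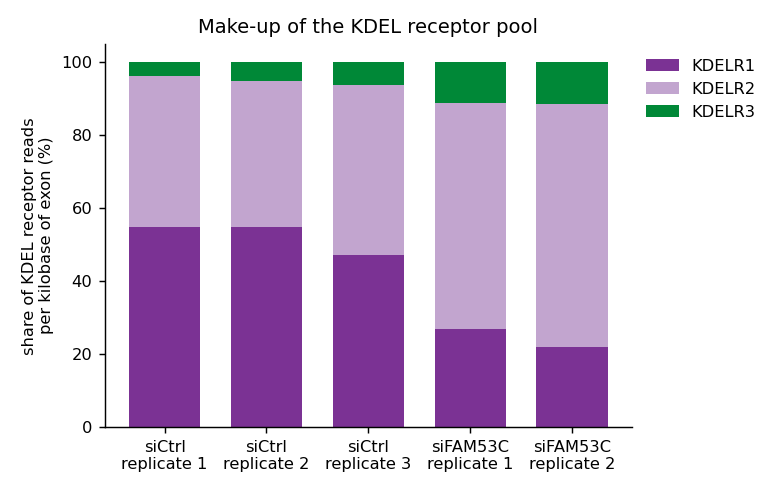
Share of KDEL receptor reads per kilobase of exon (y axis, percent) held by KDELR1, KDELR2 and KDELR3 in each of the 3 siCtrl and 2 siFAM53C libraries (x axis). KDELR1 holds 47.3% to 54.8% of the siCtrl bars and 22.1% and 27.0% of the siFAM53C bars.

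Of the coat subunits, ARCN1 fell and the other 6 did not pass the test. ARCN1 encodes delta-COP (archain), a subunit of the adaptor-like layer (ENSG00000095139, chr11:118572390-118603033, plus strand). It had 266, 292 and 295 CPM in siCtrl and 114 and 122 CPM in siFAM53C, from 5582 to 6274 counts per siCtrl library and 3012 and 2864 counts in siFAM53C. The groups did not overlap. The mean fell from 285 ± 15.8 CPM (SD, n = 3) to 118 ± 5.45 CPM (SD, n = 2), a log2 fold change of -1.27 (SE 0.11, 95% interval -1.53 to -1.02, edgeR adjusted p = 0.00118), or 41.4% of control. The value was -1.29 and -1.28 within the sides of the split, and ARCN1 passed the test in all 14 alternatives that give one, with log2 fold changes from -1.32 to -1.20.

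Leaving KDELR1 aside, 1 of the 9 other members was called lower, against 3.47% of all genes tested, and 0 were called higher, against 0.489%. By unadjusted edgeR p under 0.05 the counts were 2 lower (ARCN1 and KDELR2) and 0 higher, against 10.5% and 6.61% of all genes. DESeq2 called 1 lower and 0 higher, against 6.98% and 2.02% of the genes it tested, and limma-voom called 1 lower and 0 higher, against 3.35% and 0.482%. Both siFAM53C libraries were below every siCtrl library for 2 of the 9 (18.8% of all genes tested) and above every siCtrl library for 1 (16.7%). The median log2 fold change of the 9 was -0.01, beside 0.02 over all genes tested.

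**Figure D2:**
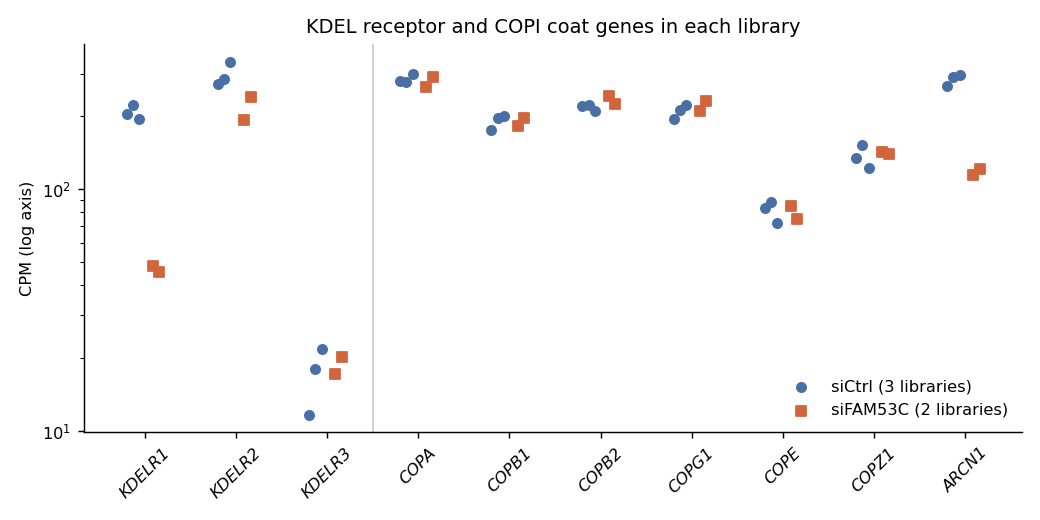
CPM of each member (y axis, log scale) in the 3 siCtrl libraries (circles) and the 2 siFAM53C libraries (squares), receptors left of the grey line and coat subunits right of it. KDELR1 and ARCN1 show a wide gap between the groups, KDELR2 a narrow one and COPB2 a slight one in the other direction. In the remaining genes the groups overlap.

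The other subunits of the adaptor-like layer did not pass the test either. COPB1, which encodes beta-COP, had 175, 196 and 200 CPM in siCtrl and 182 and 196 CPM in siFAM53C (ENSG00000129083, chr11:14443440-14500027, minus strand). COPG1, which encodes gamma1-COP, had 194, 212 and 223 CPM in siCtrl and 210 and 232 CPM in siFAM53C (ENSG00000181789, chr3:129249606-129277773, plus strand). COPZ1, which encodes the small zeta1-COP, had 134, 152 and 122 CPM in siCtrl and 143 and 140 CPM in siFAM53C (ENSG00000111481, chr12:54301202-54351846, plus strand). In each of these the groups overlapped, with log2 fold changes of -0.01 for COPB1 (95% interval -0.27 to 0.24), 0.07 for COPG1 (-0.19 to 0.33) and 0.05 for COPZ1 (-0.22 to 0.33).

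In the outer layer no gene passed the test. COPA, which encodes alpha-COP, had 280, 278 and 299 CPM in siCtrl and 266 and 292 CPM in siFAM53C (ENSG00000122218, chr1:160288594-160343566, minus strand), a log2 fold change of -0.04 (95% interval -0.28 to 0.21). COPE, which encodes epsilon-COP, had 83.5, 88.3 and 72.5 CPM in siCtrl and 85.5 and 75.0 CPM in siFAM53C (ENSG00000105669, chr19:18899514-18919387, minus strand), a log2 fold change of -0.02 (-0.31 to 0.27). COPB2, which encodes beta'-COP, was the 1 member with both siFAM53C libraries above all siCtrl libraries. It had 221, 222 and 211 CPM in siCtrl and 242 and 226 CPM in siFAM53C (ENSG00000184432, chr3:139353946-139389736, minus strand), and its log2 fold change of 0.10 (-0.14 to 0.33) did not pass the test (edgeR adjusted p = 0.699). COPB2 shares 6378 exon bases with MRPS22 on the opposite strand and COPA 188 with NCSTN, and reads of such overlaps cannot be assigned if the counting ignored strand. For the 6 subunits other than ARCN1 the edgeR adjusted p ranged from 0.699 to 0.978.

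**Figure D3:**
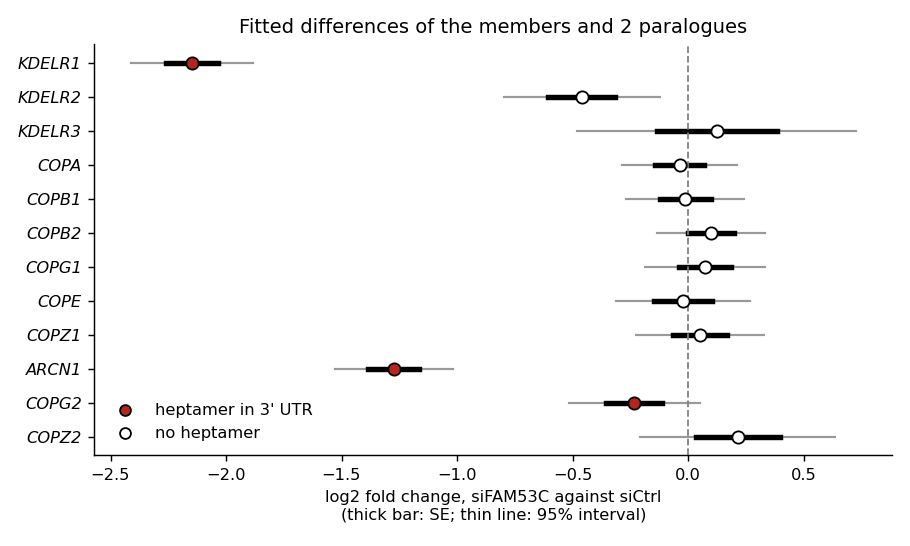
Fitted log2 fold change of siFAM53C against siCtrl (x axis) for the 10 members and the paralogues COPG2 and COPZ2 (y axis), with the SE as a thick bar, the 95% interval as a thin line, and filled points for genes with the heptamer in the 3′ UTR. KDELR1 at -2.15 and ARCN1 at -1.27 stand apart, and the intervals of the 6 other coat subunits span 0.

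Levels of different genes were compared per length. With the length of the canonical transcript, a choice made after seeing the data, the coat subunits in siCtrl lay close together, from 126 ± 10.9 TPM for COPA to 168 ± 12.5 TPM for COPZ1 (SD, n = 3), a ratio of 1.34. Above them stood KDELR1 at 313 ± 10.8 TPM and KDELR2 at 251 ± 40.2 TPM, whose library values did not overlap with each other or with any subunit. KDELR3 was lowest at 23.8 ± 7.94 TPM. Among the subunits COPZ1, COPE, ARCN1, COPG1 and COPB2, neighbours in that order overlapped in their library values, as did COPB1 and COPA, and COPB2 (154 to 158 TPM) lay above COPB1 (121 to 148 TPM). With the length of all annotated exons the same ratio was 5.85, from COPB2 at 45.8 TPM to ARCN1 at 268 TPM. The order of the subunits is therefore set by the length used. The gap between receptors and subunits depended on it too. On the length of all annotated exons KDELR1 (352 to 381 TPM) still stood above the rest in siCtrl. KDELR2 (271 to 346 TPM) overlapped there with ARCN1 (249 to 286 TPM), and KDELR3 (23.8 to 46.1 TPM) with COPB2 (45.5 to 46.2 TPM). The annotated exons of COPB2 add up to 18721 bases and its canonical transcript to 3275, and for COPA the lengths are 17664 and 5318.

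On the canonical length ARCN1 moved from 167 ± 14.3 TPM in siCtrl, inside the range of the other subunits, to 72.0 ± 3.00 TPM (SD, n = 2) in siFAM53C, below the other 6, which had means of 128 to 183 TPM. On the length of all annotated exons it was instead the highest subunit in siCtrl at 268 ± 18.2 TPM, and at 115 ± 2.49 TPM in siFAM53C it stood above the means of COPB2 (51.1 TPM), COPA (64.5 TPM) and COPE (114 TPM). Its place among the subunits therefore also depends on the length used. On the log2 CPM scale ARCN1 minus the mean of the other 6 subunits was 0.65, 0.69 and 0.79 in the siCtrl libraries. It was -0.63 and -0.55 in the siFAM53C libraries. This contrast was chosen after the values were seen and has no test.

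**Figure D4:**
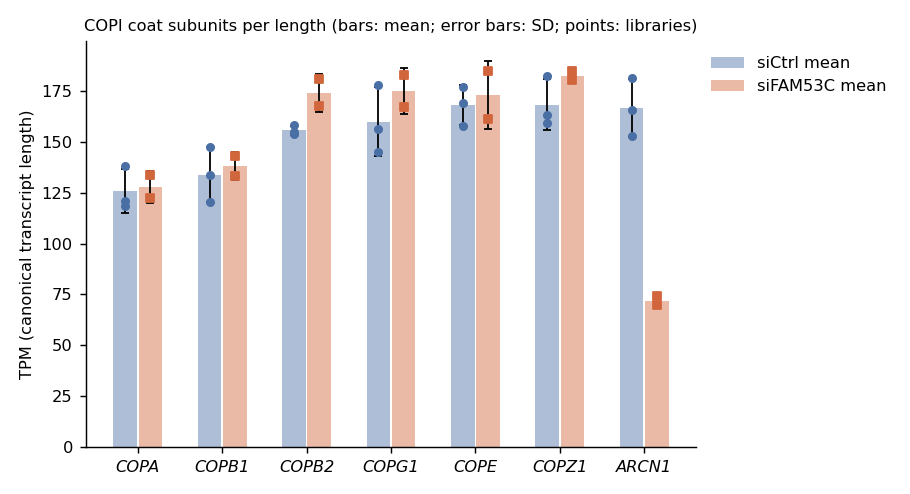
TPM of the COPI coat subunits on the length of the canonical transcript (y axis) in siCtrl and siFAM53C, with bars for means, error bars for the SD and points for libraries. The ARCN1 mean is 167 TPM in siCtrl and 72.0 TPM in siFAM53C, where the other 6 means lie between 128 and 183 TPM.

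The paralogues COPG2 and COPZ2 encode gamma2-COP and zeta2-COP, which can take the place of gamma1-COP and zeta1-COP in the coat. COPG2 had 51.5, 50.8 and 46.6 CPM in siCtrl and 45.6 and 38.8 CPM in siFAM53C, with no overlap and a log2 fold change of -0.23 (SE 0.12, edgeR adjusted p = 0.390). COPG2 shares 481 exon bases with genes on the opposite strand. COPZ2 had 11.4, 15.2 and 13.2 CPM in siCtrl and 15.9 and 14.9 CPM in siFAM53C (log2 fold change 0.21, SE 0.18, edgeR adjusted p = 0.627). The COPG1 share of COPG1 and COPG2 reads per kilobase was 78.0%, 79.6% and 81.8% in siCtrl and 81.2% and 84.8% in siFAM53C, a difference of 3.20 percentage points (exact permutation test, two-sided p = 0.3), which was 5.02 without siFAM53C replicate 1 and 1.38 without siFAM53C replicate 2. The COPZ1 share of COPZ1 and COPZ2 differed by -1.62 percentage points (exact permutation test, two-sided p = 0.3), and by -2.34 to -0.70 with 1 library left out, the smallest without siCtrl replicate 1. With 3 against 2 libraries there are 10 assignments and the smallest p is 0.1, so neither test could have reached the threshold.

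The heptamer shown above was then set against all genes. It was singled out from genes with lower counts in these same libraries, so a higher share called lower among its carriers was fixed by that choice. The shares below, which include KDELR1, are a description and no independent evidence. Of tested genes with an annotated 3′ UTR, 1289 (10.7%) held GACAAGA, and 215 of these (16.7%) were called lower, with a median log2 fold change of -0.20. Of the 10802 genes without it, 309 (2.86%) were called lower, with a median of 0.02. The 3′ UTRs differed in length too, with a median of 3243 bases in the first set and 1206 in the second. Where the heptamer was followed by A, as in KDELR1 and ARCN1, 125 of 426 genes (29.3%) were called lower, and where none was, as in COPG2, 90 of 863 (10.4%). This division was made after the values were seen, and the median 3′ UTR length was 3303 and 3229 bases. The sequences of the siRNA pool were not used here, and the part of the heptamer in the lower counts of KDELR1 and ARCN1 was not tested.

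The promoters of the members share a different sequence. Background knowledge places the core ACGTG in sites bound by ATF6 and XBP1, factors that raise ER genes in the unfolded protein response. Promoter sequences (RefSeq, GRCh38.p14, from 250 bases before to 50 bases after the start) were at hand for 9 of the 10 members, all but KDELR2. On either strand GACGTG was present in 8 of the 9, against 7.81% of 35116 promoters and 10.6% of the 10632 promoters of tested genes. The exception was KDELR1. The longer TGACGTGG, which contains it, was found in COPA, COPB1, COPB2 and KDELR3 (4 of 9, against 0.729% of all promoters and 0.941% of those of tested genes). ACGTGGC, which shares ACGTG with it, was found in ARCN1, COPB2, COPG1 and KDELR3 (4 of 9, against 3.22% and 4.37%). In COPB2 the ACGTGGC match lies apart from its GACGTG matches. CCACG, which shares CACG with the reverse complement of GACGTG, was found in 9 of 9 against 38.1% and 49.4%. KDELR1 has it with no GACGTG, and in COPE it lies apart from the GACGTG match. CCAAT was found in COPE and COPZ1 (2 of 9, against 34.6% and 36.5%). The 50 bases around the first match are shown for 1 member that fell and 3 that did not pass the test, with GACGTG or its reverse complement in capitals, 5′ to 3′ on the gene's strand.
ARCN1: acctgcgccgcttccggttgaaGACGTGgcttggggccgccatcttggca
COPA: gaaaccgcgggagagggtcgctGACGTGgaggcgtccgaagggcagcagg
COPG1: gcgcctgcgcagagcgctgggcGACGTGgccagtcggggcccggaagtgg
KDELR3: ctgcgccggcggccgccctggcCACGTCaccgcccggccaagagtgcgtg
The windows are chr11:118572368-118572417 (plus strand) for ARCN1, chr1:160343217-160343266 (minus strand) for COPA, chr3:129249575-129249624 (plus strand) for COPG1 and chr22:38468029-38468078 (plus strand) for KDELR3. These are matches of letters. ARCN1, which fell, and 7 members that did not pass the test all carry one, and KDELR1, whose level was lowest against control, carries none in this window.

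Genes that act with the members were described from lists assembled with earlier results of these data known. Shares of all genes called lower and higher were 3.47% and 0.489% by edgeR and 10.5% and 6.61% by unadjusted edgeR p. They were 6.98% and 2.02% by DESeq2 and 3.35% and 0.482% by limma-voom. A single call in a list of 8 or 9 genes is therefore not read as a result about that list. ARF GTPases and their regulators, which load and unload the coat, had 0 of 9 genes called by edgeR and a median log2 fold change of 0.00. By unadjusted p under 0.05, 3 were lower (ARF1 at -0.27, ARFGAP2 at -0.38 and ARFGAP3 at -0.37, named after their values were seen) and 1 higher, DESeq2 called 1 higher and limma-voom 0. The higher gene, chosen after its values were seen, was ARFGAP1, an activator of GTP hydrolysis by ARF1, with a log2 fold change of 0.56 (edgeR adjusted p = 0.102). The tethers and SNAREs at which COPI vesicles dock on the ER had 0 of 8 called by edgeR, with 1 lower by unadjusted p, 1 lower by DESeq2 and 0 by limma-voom, and a median of -0.02. That gene was ZW10, a tether subunit also chosen after its values were seen, at -0.49 (edgeR adjusted p = 0.0605). The COG complex, a Golgi tether, had 0 of 8 called by edgeR, DESeq2 or limma-voom, 1 higher by unadjusted p (COG8 at 0.29, named after its value was seen), and a median of 0.05.

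Genes from a list of presumed receptor cargo were among those called. The list holds 47 genes for proteins with a KDEL-type ending in the broad sense, named from background knowledge with no ending read here, and 46 were tested. Of the 46, 6 were called lower by edgeR, against 3.47% of all genes, and 0 higher. By unadjusted edgeR p 20 were lower (10.5% of all genes), DESeq2 called 10 lower (6.98%) and limma-voom 6 (3.35%), and 0 were higher by any of these. Of the 46, 35 had a negative log2 fold change, against 7391 of all 15341 genes tested. The median was -0.32 beside 0.02 over all genes tested. For 25 of the 46 both siFAM53C libraries were below every siCtrl library, and for 4 (FKBP2, SIL1, SDF2 and FKBP10, named after their values were seen) they were above, shares of all genes being 18.8% and 16.7%. With the library split as a term 24 were called lower and 1 higher, in a fit that called 10.7% of all genes lower and 6.76% higher.

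The cargo gene with the largest change was HYOU1, an ER chaperone of the HSP70 family. It had 321, 284 and 373 CPM in siCtrl and 68.8 and 99.9 CPM in siFAM53C (log2 fold change -1.95, SE 0.20, edgeR adjusted p = 0.00236). SDF4 encodes a calcium-binding protein, Cab45, of the Golgi lumen, and it fell from 230, 219 and 202 CPM to 71.1 and 73.9 CPM (-1.58, SE 0.11, adjusted p = 5.75e-04 by edgeR). In both genes the groups stood far apart. TXNDC12, a thioredoxin-like ER protein, fell from 78.9, 78.1 and 77.0 CPM to 31.0 and 34.1 CPM (-1.26, SE 0.11, edgeR adjusted p = 0.00118). EDEM3, which trims mannose from misfolded glycoproteins, fell from 67.0, 69.2 and 90.7 CPM to 29.1 and 35.2 CPM (-1.23, SE 0.17, edgeR adjusted p = 0.00890), and without siFAM53C replicate 1 its adjusted p was 0.0813. HYOU1 and TXNDC12 share 667 and 435 exon bases with genes on the opposite strand. Other named genes of the related lists share such bases too. They are COG8 (2603), HSP90B1 (910), P4HB (529), SDF2 (427), SIL1 (372), CALR (270), TXNDC5 (212) and ARFGAP2 (87).

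HSPA5 (BiP), the main HSP70 of the ER, had 1356, 1377 and 1649 CPM in siCtrl and 677 and 924 CPM in siFAM53C, with no overlap and a log2 fold change of -0.87 (SE 0.17, edgeR adjusted p = 0.0347). That call was lost without siCtrl replicate 1, siCtrl replicate 2 or siFAM53C replicate 1 (edgeR adjusted p = 0.115, 0.139 and 0.237) and with library totals as the only scaling (0.0511). CALR, the lectin chaperone calreticulin, had 1281, 1209 and 1151 CPM in siCtrl and 844 and 903 CPM in siFAM53C (-0.48, SE 0.12, edgeR adjusted p = 0.0743), and it was called in 6 of 14 alternatives, DESeq2 (adjusted p = 0.00190) and the split term (6.27e-04) among them. HSP90B1 (GRP94) had -0.41 (SE 0.17, edgeR adjusted p = 0.275) and was called in 2 of 14, with the split term (3.07e-04) and with a replicate block by column names (0.00130). P4HB, a protein disulfide isomerase, had -0.09 (SE 0.11, edgeR adjusted p = 0.766) and was called in 0 of 14. The sixth gene called, named after its values were seen, was MANF, a secreted ER stress protein, at -0.61 (edgeR adjusted p = 0.0495), a call lost without any of siCtrl replicate 1, siCtrl replicate 2, siFAM53C replicate 1 or siFAM53C replicate 2 (edgeR adjusted p = 0.0720 to 0.327), and with RLE size factors, library totals or the fit without robust estimation (0.0508, 0.0745 and 0.0568). Without siFAM53C replicate 1, 3 genes of these lists remained called lower: HYOU1, SDF4 and TXNDC12.

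The heptamer was present in 7 of the 46 cargo genes (EDEM3, HSPA5, HYOU1, LRPAP1, SDF4, TXNDC5 and UGGT1), of which 4 were called lower, with a median log2 fold change of -0.87. Over all tested genes with an annotated 3′ UTR, 10.7% held it and 16.7% of those were called lower. Of the 39 cargo genes without it, 2 were called lower (MANF and TXNDC12), with a median of -0.30, beside 2.86% called lower over all genes without it. The median 3′ UTR length was 1739 bases in the first set and 735 in the second, and the part of the length or the heptamer was not tested. The heptamer was chosen from lower counts in these libraries, so this comparison is no independent evidence either. Among the other lists the heptamer was found in SEC22B, a docking SNARE, and in none of the ARF or COG genes.

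**Figure D5:**
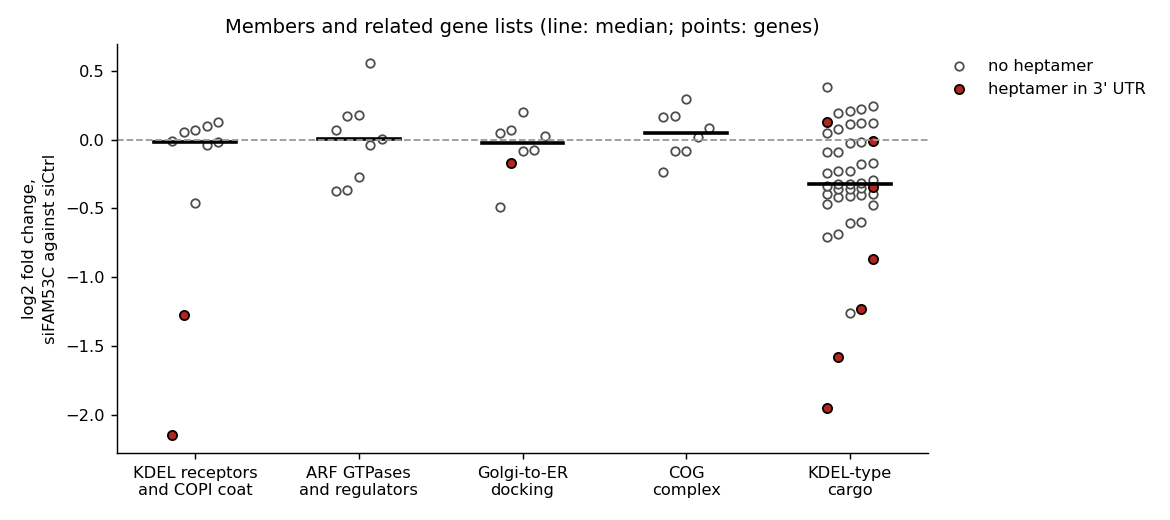
Log2 fold change of siFAM53C against siCtrl (y axis) for each tested gene of 5 sets (x axis), with the median as a black line and filled points for genes with the heptamer in the 3′ UTR. The cargo median is -0.32, and those of the other 4 sets lie between -0.02 and 0.05.

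Across the 5 libraries, the genes whose centred log2 CPM lay closest to that of KDELR1, out of 9291 genes with a mean of at least 10 CPM, included ANTXR2 and TMEM64. Their root mean square differences from KDELR1 were 0.07 and 0.10. ANTXR2, a receptor of the anthrax toxin, had 179, 172 and 158 CPM in siCtrl and 42.6 and 38.3 CPM in siFAM53C. TMEM64, a membrane protein, had 35.2, 41.2 and 35.2 CPM in siCtrl and 9.79 and 9.34 CPM in siFAM53C. The heptamer occurs 2 times in the 3′ UTR of ANTXR2 and 0 times in that of TMEM64.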

How the data were processed

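Whole-number counts per gene were deposited by the authors without normalization. The submitters' processing notes name cutadapt 2.10, HISAT2, featureCounts and hg38, and the methods name reverse strandedness for the alignment. The labels list a mouse build beside hg38, while the methods name hg38 only. Whether the counting used strand is not given in the sources used here. Genes were placed with GENCODE 44 on GRCh38, which may differ from the annotation the authors used, and 56105 of 64252 rows matched.

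Counts were fitted in R 4.3.3 with edgeR 4.0.16 (filterByExpr with minimum count 10 and minimum total 15, TMM factors, robust quasi-likelihood test, condition only) and adjusted by Benjamini-Hochberg over all 15341 genes, with a threshold of 0.05. The fit was tested on simulated data. The simulated counts had no library split, so that test does not cover the split seen here. CPM used the TMM factors, and TPM used summed exon lengths or, added after seeing the data, canonical transcript lengths. Alternatives were DESeq2 1.42.0 (the test the methods name), limma-voom in limma 3.58.1, other scaling, no filter, a replicate block, the library split and each library left out. The members, lists, split and heptamer were chosen with earlier results of these data known. Named genes were all members, their paralogues, FAM53C, at most 4 called genes per list, HSPA5, HSP90B1, CALR and P4HB, and the 3 genes most like KDELR1 with a mean CPM of at least 10. Of the last, 1 is not reported here. Outside that rule the text names identity markers, overlapping genes, listed genes with the heptamer, and genes it says were named after their values were seen.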

Additional observations from a re-analysis of the deposited data

How the results depend on the processing

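KDELR1 had a log2 fold change between -2.19 and -2.08 and ARCN1 between -1.32 and -1.20 under every alternative. Inside each side of the split FAM53C was at -2.08 and -1.37. Members other than KDELR1 called lower numbered 1 of 9 in the reported fit. They numbered 2 (ARCN1 and KDELR2) with no filter, with a replicate block by column names and with a split term. The split-term fit called 10.7% of all genes lower, and no such share was computed for no filter or a block by column names. Of the 73 related-list genes tested, 6 were called lower, against 3.47% of all genes. The number was 11 of 74 with DESeq2 (6.98%), 6 with limma-voom (3.35%) and 28 with a split term (10.7%). It was 13 of 74 with no filter, 22 with a block by column names and 9 with a block by titles. It was 5 with RLE size factors and with the fit without robust estimation. With library totals only it was 4, and with 1 siCtrl library left out 4 to 9. Settings given without a percentage had no share over all genes computed, so those counts are not read as a result about the lists. Those called higher numbered 0 (0.489% of all genes), 1 with DESeq2 (2.02%) and 2 with a split term (6.76%). They numbered 1 with no filter and with a block by titles, 2 with a block by column names and 0 to 1 with 1 siCtrl library left out. The ratio of the highest to the lowest subunit was 5.85, and 4.16 with the longest and 1.34 with the canonical transcript.

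Small differences changed sign: with library totals only COPA was 0.0344, COPB1 0.0589 and COPE 0.0516. With a split term COPE was 0.0171, and within a side COPE was 0.0493, COPZ1 -0.0042 and KDELR3 -0.11. With 1 library left out the ranges were -0.0926 to 0.34 for KDELR3, -0.11 to 0.0251 for COPA, -0.0705 to 0.0373 for COPB1, -0.0031 to 0.14 for COPG1, -0.12 to 0.0672 for COPE and -0.0115 to 0.14 for COPZ1. The cause was not tested.

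The titles number the siFAM53C libraries 1 and 2 and a column name carries 3 for the second. Deviations of same-numbered libraries correlated at 0.17 for the pair numbered 1 in both, at -0.29 for the pair numbered 2 in the titles and at 0.37 for the pair numbered 3 in the column names. The pair numbered 3 in the column names, siCtrl replicate 3 and siFAM53C replicate 2, is also 1 side of the library split. Deviations of the siFAM53C libraries from their common mean mirror each other, so these correlations are not separate evidence. Neither numbering gives 3 pairs and no label says that a number marks a shared batch, so the numbers were not taken as pairing the libraries. With a replicate block by titles COPB1 was 0.0262 and COPZ1 -0.0169, and with a block by column names COPB1 was 0.0126 and COPE 0.0417. ARCN1 passed under both blocks.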
